A study of Mus musculus with 4 samples.

Results

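Integrin and laminin chain genes were followed in Flk-1+ cells sorted by a Hoxb6-Venus reporter. The genes were taken by name: each gene whose symbol marks it as an integrin alpha or beta chain (Itga, Itgb) or as a laminin alpha, beta or gamma chain (Lama, Lamb, Lamc), read from the accession of its array probe. Of 37 such symbols in the RefSeq gene table, 35 had a probe, out of 20658 named genes with a probe. They are 24 integrin and 11 laminin genes, covered by 46 probes. Where a gene had several probes, the probe with the highest mean signal over the 4 arrays stood for it. Itga10 and Itgae were not analysed here.

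The Venus-positive group was the Flk-1+Hoxb6-Venus+ fraction and the Venus-negative group the Flk-1+Hoxb6-Venus- fraction, with 2 arrays each. Both fractions came from the mouse ES cell line EB5 into which the Venus reporter of Hoxb6 had been introduced, after 6 days of differentiation on a layer of OP9 stromal cells. Flk-1 is the protein of Kdr, a receptor for vascular endothelial growth factor found on early mesoderm, and Hoxb6 is a homeobox gene of trunk mesoderm. The labels name 1 reporter line and do not say whether it is a single clone, nor whether replicates came from separate cultures, so the spread behind the p-values may be a technical one.

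Laminins are trimers of 1 alpha, 1 beta and 1 gamma chain and form the first sheet of a basement membrane. Integrins are pairs of 1 alpha and 1 beta chain in the cell membrane: the alpha chain largely sets which ligand is bound, and the beta chain links to the actin or keratin cytoskeleton. In the early embryo, laminin chains are needed for the basement membrane that mesoderm cells leave and later rebuild, and beta1 integrins carry adhesion to fibronectin and laminin in mesoderm and forming vessels.

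The 4 arrays lay on 1 slide and were read in 1 scan, and 50.7% to 53.0% of their spots were well above background, with 0 spots saturated. Replicate 1 of both fractions lay in slide row 1 and replicate 2 in row 2, while the Venus-positive arrays lay in slide column 3 and the Venus-negative arrays in column 2. Slide column and fraction therefore cannot be told apart. Levels are given as the log2 processed signal minus the 75th percentile of the array's log2 signals, called the normalised log2 signal, and every difference is Venus-positive minus Venus-negative on this scale. The sorted antigen gene Kdr averaged 6.07 in Venus-positive and 5.63 in Venus-negative cells (difference 0.44 ± 0.11 SE, limma adjusted p = 0.138). Hoxb6 lay at 2.00 and 2.24 in Venus-positive and at 1.23 and 0.98 in Venus-negative arrays (difference 1.01 ± 0.16 SE, limma adjusted p = 0.0716). With 4 arrays, precision is low throughout.

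Markers of other cells that a sorted fraction could hold differed between the fractions. Over all features, 0.777% were past the threshold (limma adjusted p under 0.05) as higher and 1.36% as lower. At an unadjusted p under 0.05 in limma, 12.3% were higher and 11.4% lower. Of 14 endothelial markers tested, 4 were past the threshold as higher and 14 of 14 differences were positive (median 1.43); their summed signal was 524 and 605 times the 75th percentile in Venus-positive arrays and 247 and 306 times in Venus-negative arrays. Of 10 primitive streak markers, 7 were past the threshold as lower (median -4.40), with sums of 33.3 and 19.5 in Venus-positive and 85.5 and 68.0 in Venus-negative arrays. A marker well above background in 1 fraction alone could enter the test through that fraction, in this list as in the others. How many of these 7 did so is not reported here. Endoderm markers had 3 of 13 past the threshold as lower (median -0.58, with sums of 42.8 and 43.7 in Venus-positive and 53.8 and 58.2 in Venus-negative arrays, Apoa1 not well above background on any array). Among 10 pluripotency markers 1 was past it as lower (median -0.40), with sums of 32.2 and 21.9 in Venus-positive and 79.3 and 51.5 in Venus-negative arrays. Smooth muscle markers had 1 of 7 past it as lower (median -0.60), with sums of 64.7 and 39.7 in Venus-positive and 88.8 and 57.3 in Venus-negative arrays, and Myh11 was not well above background on any array. Of these 7 markers, 0 had a positive difference, and 0 were higher and 4 lower at an unadjusted p under 0.05 in limma. Over all features, 50.4% were positive and 11.4% lower at that p. The call past the threshold was that of Rgs5. It was well above background on 0 Venus-positive and 2 Venus-negative arrays and so entered the test only through the fraction where it is high. Blood markers had 0 of 13 past it in limma, with 0 higher and 1 lower at an unadjusted p under 0.05 (median -0.20), and sums of 93.6 and 103 in Venus-positive and 109 and 163 in Venus-negative arrays; Ptprc, which defines white blood cells, was not well above background on any array. OP9 stromal and fibroblast markers had 0 of 14 past it in limma, with 1 higher and 3 lower at an unadjusted p under 0.05 (median -0.34), and sums of 69.7 and 49.6 in Venus-positive and 87.0 and 79.8 in Venus-negative arrays. The part of these cells in the differences of the integrin and laminin chains was not tested.

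The promoters of 4 of the 5 chain genes with a limma adjusted p under 0.1 are shown, because the values below turn on these genes. Each is taken from the 250 bases before a start of the gene in a RefSeq promoter table (GRCm38.p6), 5′ to 3′ on the gene's strand, without bases inside the gene's bounds, which leaves 250 bases for Itgb5 and Itga4, 209 for Itga8 and 120 for Itga3. Capitals mark 4 motifs searched on both strands: the GC box GGGCGG, the binding motif GATA of GATA factors, the TATA box TATAAA and the core CCGGAA of ETS factor sites.
Itga8, chr2:12301986-12302194, minus strand: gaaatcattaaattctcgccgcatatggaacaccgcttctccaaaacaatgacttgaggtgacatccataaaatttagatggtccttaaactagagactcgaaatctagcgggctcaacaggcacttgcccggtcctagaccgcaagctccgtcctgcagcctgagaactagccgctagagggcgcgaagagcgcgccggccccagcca
Itgb5, chr16:33829415-33829664, plus strand: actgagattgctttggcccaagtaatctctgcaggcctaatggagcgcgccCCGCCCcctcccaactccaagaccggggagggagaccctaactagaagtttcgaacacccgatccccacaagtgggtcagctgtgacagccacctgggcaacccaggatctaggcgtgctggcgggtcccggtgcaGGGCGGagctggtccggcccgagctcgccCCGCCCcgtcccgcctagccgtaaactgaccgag
Itga3, chr11:95076845-95076964, minus strand: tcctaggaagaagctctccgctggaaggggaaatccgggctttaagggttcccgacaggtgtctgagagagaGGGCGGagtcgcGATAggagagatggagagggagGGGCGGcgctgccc
Itga4, chr2:79255176-79255425, plus strand: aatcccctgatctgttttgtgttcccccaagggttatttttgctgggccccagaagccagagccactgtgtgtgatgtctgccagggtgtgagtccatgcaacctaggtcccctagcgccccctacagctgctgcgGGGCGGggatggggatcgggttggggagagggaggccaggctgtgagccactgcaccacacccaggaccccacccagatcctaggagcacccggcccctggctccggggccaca

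The window of Itga8 held none of the 4 motifs, which says only that these letters are not in it. The GC box occurred 3 times in the window of Itgb5, 2 times in that of Itga3 and 1 time in that of Itga4, and the window of Itga3 also held 1 GATA. Of all 32851 windows in the RefSeq promoter table, cut to the same length, 32.7% held a GC box, 53.6% GATA, 12.4% TATAAA and 12.0% the ETS core in 250 bases. In 209 bases, the length shown for Itga8, the shares were 26.5%, 49.2%, 9.51% and 8.69%, and in 120 bases, the length shown for Itga3, they were 12.8%, 35.4%, 6.04% and 4.01%. These shorter cuts keep the bases of each window farthest from its listed start. The windows shown for Itga8 and Itga3 end at the gene's bound, so the cuts match in length but not in position. Promoter windows were present for 23 of the 35 chain genes.

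Itga8, the integrin alpha8 chain, was the single chain gene that passed the test, and it was 5.90-fold lower in Venus-positive cells. The other chain genes at a log2 difference of 1 or more were higher in Venus-positive cells and did not pass: Itgb4, Itga3, Itga4, Itga2 and Lama3. Of the 35 chain genes, 31 were well above background on all 4 arrays and were tested, and none entered the test through 1 fraction alone. The other 4 chain genes, Itgax, Itgad, Itgb6 and Itgb8, were not well above background on any array.

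At a Benjamini-Hochberg adjusted p under 0.05, 0 of the 31 were higher and 1 was lower in limma, where 0.777% of the 23545 features tested were higher and 1.36% lower. At an unadjusted p under 0.05, 6 of the 31 were higher and 4 lower, against 12.3% and 11.4% of all features. The higher ones were Itga2, Itga3, Itga4, Itga9, Itgb4 and Lama3, and the lower ones Itga8, Itgb3, Itgb5 and Lamb1. The counts by role below are to be read beside the same shares of all features. In 11 chain genes both Venus-positive arrays lay above both Venus-negative arrays, and in 10 they lay below, where 29.1% and 28.4% of all features did so. The median difference was 0.05 over the 31 chain genes, 0.04 over 20 integrin genes and 0.18 over 11 laminin genes, and that over all features was under 0.01. A log2 difference of at least 1 was seen in 6 of the 31 and in 8.03% of all features, and a difference under 0.5 in 17 of the 31 and in 77.0% of all features.

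**Figure D1:**
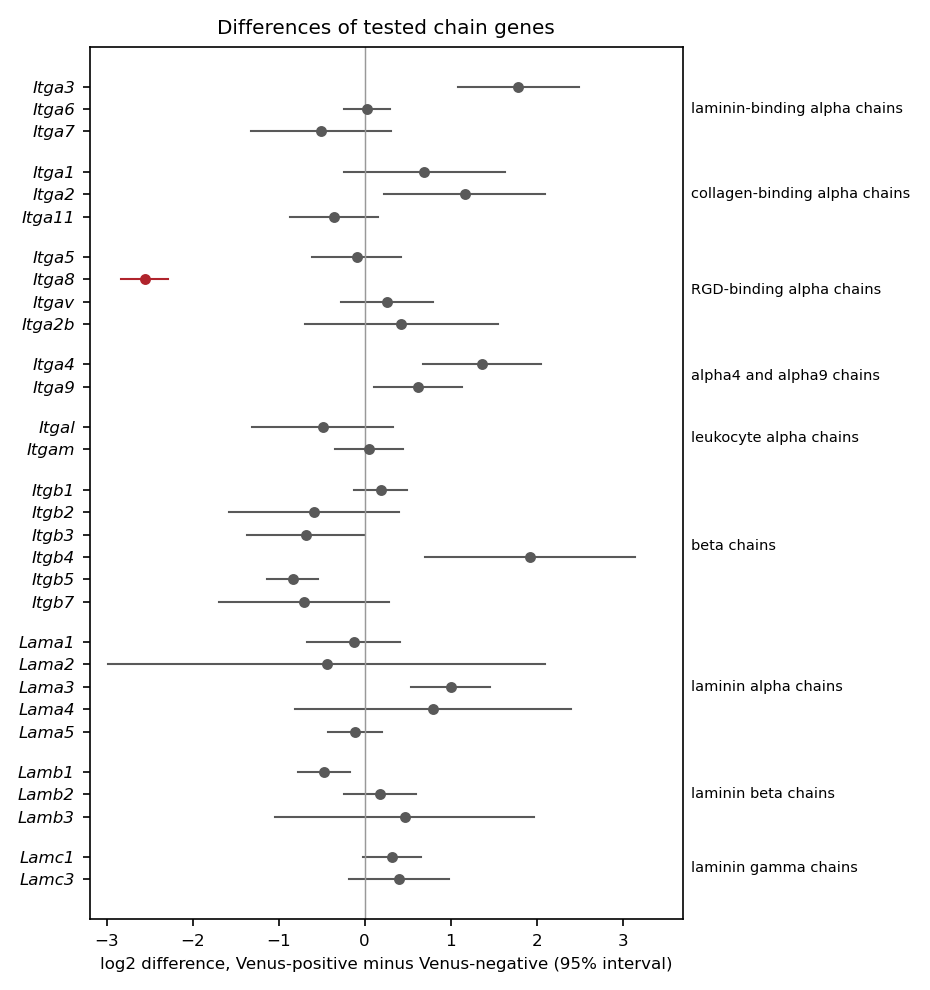
Log2 difference of tested chain genes, Venus-positive minus Venus-negative (x axis), grouped by role down the page. Points are limma estimates from 2 arrays a fraction and bars their 95% intervals, not adjusted over genes; red marks an adjusted p under 0.05, reached by Itga8 at -2.56.

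Among the alpha chains that bind laminin, Itga3 had the largest difference. Itga3 encodes the chain that pairs with beta1 to bind laminins of epithelial and vascular basement membranes. Its normalised log2 signal was 1.28 and 1.76 in Venus-positive arrays, against -0.48 and -0.06 in Venus-negative arrays. Both Venus-positive arrays lay above both Venus-negative ones, by 1.76 in slide row 1 and 1.82 in row 2. The difference of 1.79 ± 0.25 SE, or 3.46-fold, missed the threshold in limma (adjusted p = 0.0637), and passed with slide row, which is also the replicate number, as a block (adjusted p = 0.0428). Itga6, the chain that pairs with beta1 or beta4, had nearly the same signal everywhere, at 4.37 and 4.38 in Venus-positive and 4.36 and 4.34 in Venus-negative arrays. The 95% interval of its difference ran from -0.24 to 0.29. Itga7, known as the laminin receptor of muscle, lay at -2.51 and -2.90 in Venus-positive and -1.88 and -2.52 in Venus-negative arrays, and the fractions overlapped (difference -0.51 ± 0.29 SE, limma adjusted p = 0.368).

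The collagen-binding alpha chains Itga1 and Itga2 had positive differences and Itga11 a negative one, and none of the 3 passed in limma, with 1 higher at an unadjusted p under 0.05. Itga2, the alpha chain of the collagen receptor of platelets and epithelia, had a normalised log2 signal of -2.87 and -2.87 in Venus-positive arrays, against -4.47 and -3.59 in Venus-negative arrays. The fractions did not overlap, and the Venus-negative arrays lay far apart, so that the difference of 1.16 ± 0.33 SE had a limma adjusted p of 0.157. The Itga2 signal was low, at 17.9 and 28.7 in Venus-negative arrays, whose median signals were 19.0 and 17.3. With normexp background correction its difference was 0.44. Itga1, a collagen and laminin receptor chain of endothelium and smooth muscle, averaged -1.19 ± 0.34 in Venus-positive and -1.89 ± 0.52 in Venus-negative cells (SD, n = 2 each), a difference of 0.69 ± 0.33 SE (adjusted p = 0.305). Itga11, a collagen receptor chain of mesenchymal cells, averaged -0.45 in Venus-positive and -0.09 in Venus-negative cells, a difference of -0.36 ± 0.18 SE (adjusted p = 0.324).

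Itga8 stood out among the alpha chains that bind the RGD motif of fibronectin and related proteins. It encodes alpha8, which pairs with beta1, binds fibronectin, tenascin and nephronectin, and is known from kidney mesenchyme and smooth muscle. Its processed signal was 68.3 and 66.2 in Venus-positive arrays, against 374 and 338 in Venus-negative arrays. On the normalised log2 scale this is -2.65 and -2.59 in Venus-positive, against -0.08 and -0.04 in Venus-negative arrays. The replicates of each fraction lay close together and the fractions far apart. The difference was -2.57 in slide row 1 and -2.55 in slide row 2. Itga8 thus fell in Venus-positive cells, with a log2 difference of -2.56 ± 0.10 SE, a 95% interval of -2.84 to -2.28 and a limma adjusted p of 0.0278, and ranked 158 by size among 23545 features. In bulk RNA, fewer cells of a type and less RNA per cell cannot be told apart.

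The call for Itga8 was lost when any 1 array was left out, with a limma adjusted p of 0.127 to 0.161 without Venus-positive replicate 1, Venus-positive replicate 2, Venus-negative replicate 1 or Venus-negative replicate 2. The difference stayed between -2.59 and -2.53 in these fits, in which the lone array of a fraction is assumed to vary as the pair of the other. In the same fits 0 of 23545 features passed in limma, while 1687 to 2509 were higher and 1719 to 2161 lower at an unadjusted p under 0.05. The call was also lost with dim probes kept (limma adjusted p = 0.143), where 0 of 49102 features passed. With normexp background correction the difference of Itga8 was smaller, at -1.74 (adjusted p = 0.00606). Marker medians were negative for primitive streak, endoderm, pluripotency, smooth muscle, blood and stromal genes and positive for endothelial ones, as given above. Of 7 smooth muscle markers, 0 had a positive difference and only Rgs5 was past the threshold. The part of these cells was not tested.

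The other RGD-binding alpha chains had differences under 0.5 in size. Itga5, which with beta1 is the main fibronectin receptor of mesoderm, lay at 0.85 and 0.83 in Venus-positive and 1.15 and 0.71 in Venus-negative arrays, and the fractions overlapped (difference -0.09 ± 0.18 SE, adjusted p = 0.798). Itgav, which pairs with beta1, beta3, beta5, beta6 or beta8, differed by 0.26 ± 0.19 SE (adjusted p = 0.470). Its second probe gave -0.17 ± 0.11 SE, so that the probes disagree in sign and neither passed. Itga2b, the alpha chain of the fibrinogen receptor of platelets and early blood progenitors, lay at 2.57 and 3.22 in Venus-positive and 2.05 and 2.89 in Venus-negative arrays. These ranges overlapped, and replicate 2 was above replicate 1 in both fractions (difference 0.43 ± 0.40 SE, adjusted p = 0.572).

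Itga4 and Itga9, relatives that bind fibronectin, tenascin or cell surface ligands such as Vcam1, both had positive differences that missed the threshold in limma, with 2 of 2 higher at an unadjusted p under 0.05. Itga4, needed in mouse embryos for placenta and heart and a marker of early blood progenitors, had a normalised log2 signal of 1.97 and 1.57 in Venus-positive arrays, against 0.17 and 0.64 in Venus-negative arrays. The fractions did not overlap, and the difference was 1.80 in slide row 1 and 0.93 in row 2. It averaged 1.36 ± 0.24 SE, or 2.57-fold (limma adjusted p = 0.0866). A second Itga4 probe was not well above background in Venus-negative cells and gave at least 1.51-fold higher signal in Venus-positive cells, where each dim array counts at its own signal or, if that is higher, at the lowest signal of any probe well above background there; having passed the filter only through the Venus-positive arrays, it is no further support. Itga9, known from lymphatic valves and muscle, lay at 4.65 and 4.26 in Venus-positive and 3.92 and 3.75 in Venus-negative arrays, without overlap (difference 0.62 ± 0.18 SE, adjusted p = 0.163).

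Of the leukocyte alpha chains, Itgal and Itgam were tested and Itgax and Itgad were not well above background on any array. Itgal, the alpha chain of LFA-1, had a normalised log2 signal of -4.25 and -4.21 in Venus-positive arrays, against -4.12 and -3.36 in Venus-negative arrays. Its Venus-negative replicate 2 stood apart from the other 3 arrays (difference -0.49 ± 0.29 SE, adjusted p = 0.388), and without it the difference was -0.11. The summed signal of the blood markers was highest on that array too. Among them Hbb-bh1, a globin gene, lay at 6.09 there and at 4.64 to 4.88 on the other arrays. Spi1, another of these markers, lay at -2.28 there and at -2.60 to -2.06 on the others. The part of blood cells was not tested. Itgam, the alpha chain of the macrophage receptor Mac-1, averaged 3.40 ± 0.01 in Venus-positive and 3.35 ± 0.20 in Venus-negative cells (SD, n = 2 each), and the 95% interval of its difference ran from -0.35 to 0.45. Other probes of Itgam did not follow this one, whose processed signal was 3652 to 4558 over the 4 arrays. One, with a signal of 6.95 to 19.2, gave 0.68, well above background on 1 Venus-positive and 0 Venus-negative arrays. The other, with a signal of 17.7 to 34.3, gave -0.56, above it on 1 array of each fraction. Neither was tested, and the probes do not settle the level of Itgam. Ptprc, the defining gene of white blood cells, was not well above background on any array, as given above.

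**Figure D2:**
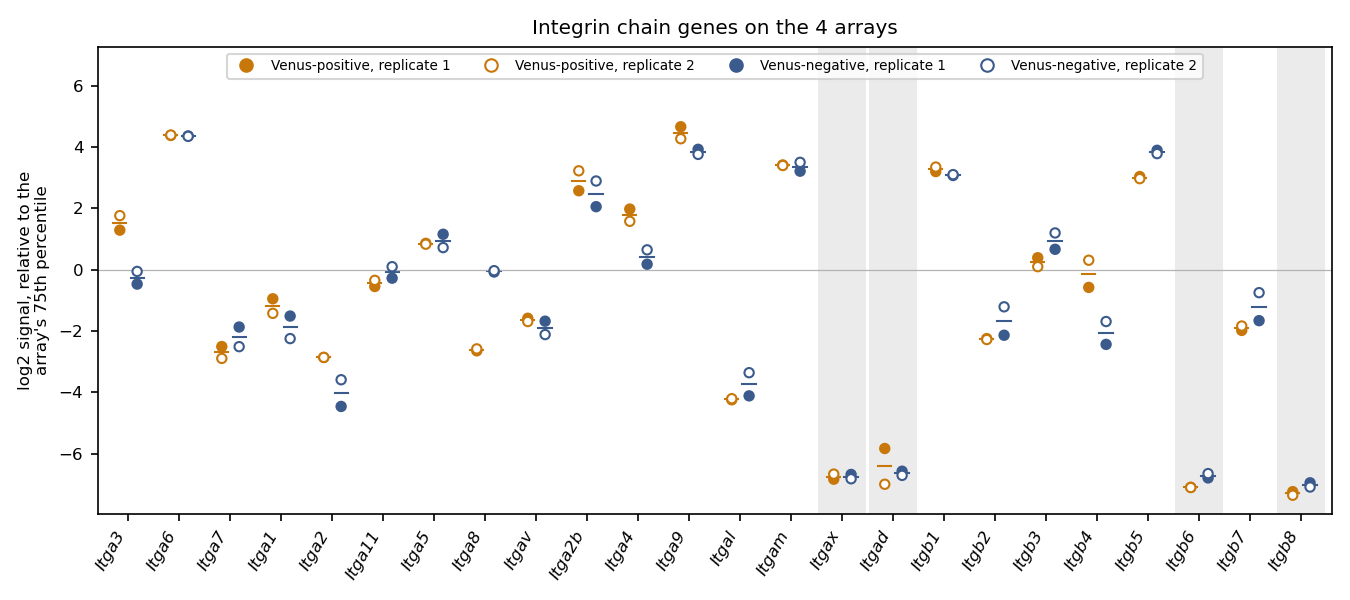
Normalised log2 signal (y axis) of each integrin chain gene with a probe on the 4 arrays. Points are single arrays, Venus-positive left of Venus-negative, lines the mean of 2 arrays, and grey columns genes not well above background on any array; the Itga8 points lie at -2.65 and -2.59 in Venus-positive and at -0.08 and -0.04 in Venus-negative arrays.

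Among the beta chains, Itgb4 had the largest difference and Itgb5 the one with the smallest adjusted p. Of 6 tested, 0 passed in limma, with 1 higher and 2 lower at an unadjusted p under 0.05, and the median was -0.64. Itgb4, which pairs with alpha6 and anchors keratin filaments at hemidesmosomes, had a normalised log2 signal of -0.58 and 0.30 in Venus-positive arrays, against -2.44 and -1.70 in Venus-negative arrays. The fractions did not overlap, and replicate 2 was the higher one in both. The difference was 1.86 in slide row 1 and 2.00 in row 2. Over both it was 1.93 ± 0.43 SE, or 3.81-fold, which missed the threshold (adjusted p = 0.117) and passed with slide row as a block (adjusted p = 0.0428). Its partner Itga6 differed by 0.03, as given above.

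Itgb5, the beta chain of the vitronectin receptor alphaV beta5, had a normalised log2 signal of 3.03 and 2.96 in Venus-positive arrays, against 3.89 and 3.78 in Venus-negative arrays. Both Venus-positive arrays lay below both Venus-negative arrays, by 0.86 in slide row 1 and 0.82 in row 2. The difference of -0.84 ± 0.10 SE missed the threshold in limma (adjusted p = 0.0569). Itgb3, which pairs with alphaV in vessels and with alphaIIb in platelets, lay at 0.38 and 0.09 in Venus-positive and 0.66 and 1.19 in Venus-negative arrays, without overlap (difference -0.69 ± 0.24 SE, adjusted p = 0.208). The difference of Itgb3 was -0.27 in slide row 1 and -1.10 in row 2, and it was -0.42 without Venus-negative replicate 2. A second Itgb3 probe gave -0.95 ± 0.16 SE (limma adjusted p = 0.0800 in a fit over all probes). The signal of that probe was low, at 17.3 and 19.2 in Venus-positive arrays, whose median signals were 20.7 and 18.1. Thus both tested beta partners of alphaV other than beta1 had negative differences, and the difference of Itgav itself had no settled sign over its probes.

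Itgb1, the shared beta partner of most alpha chains, had nearly equal signals in the fractions. It lay at 3.19 and 3.34 in Venus-positive and 3.07 and 3.09 in Venus-negative arrays, and the 95% interval of its difference ran from -0.12 to 0.49. A second probe gave 0.15 ± 0.15 SE. Itgb2, the beta chain of leukocyte integrins, averaged -2.27 ± 0.02 in Venus-positive and -1.68 ± 0.65 in Venus-negative cells (SD, n = 2 each), a difference of -0.59 ± 0.35 SE (adjusted p = 0.387). Itgb7, a partner of alpha4 on lymphocytes, averaged -1.91 ± 0.10 in Venus-positive and -1.21 ± 0.65 in Venus-negative cells (SD, n = 2 each), a difference of -0.70 ± 0.35 SE (adjusted p = 0.319). Both differences came mainly from Venus-negative replicate 2, and they shrank in size to 0.12 for Itgb2 and 0.25 for Itgb7 without it. On that array the blood markers summed to 163 times the 75th percentile, as given above. Of these markers, Hbb-bh1 was highest there, Spi1 was not, and Ptprc was not well above background. The part of blood cells was not tested.

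None of the laminin alpha chains passed in limma, with 1 of 5 higher and 0 lower at an unadjusted p under 0.05. Lama3, an alpha chain of epithelial laminin, had a normalised log2 signal of -0.77 and -0.74 in Venus-positive arrays, against -1.94 and -1.58 in Venus-negative arrays. The fractions did not overlap, and the difference of 1.00 ± 0.16 SE, or 2.00-fold, had a limma adjusted p of 0.0774. A second Lama3 probe gave 1.35 ± 0.36 SE (limma adjusted p = 0.140 in a fit over all probes). It was well above background on 2 Venus-positive and 1 Venus-negative arrays. Having passed the filter only through the Venus-positive arrays, it is no further support. Lamb3, the trimer partner of Lama3, differed by 0.46 ± 0.53 SE, with overlapping fractions (adjusted p = 0.648).

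Lama4, the laminin alpha chain of endothelium, lay at 2.60 and 3.50 in Venus-positive and 1.64 and 2.89 in Venus-negative arrays. Replicate 2 was above replicate 1 in both fractions, so the fractions overlapped, although the difference was positive in both slide rows, at 0.96 in row 1 and 0.62 in row 2 (mean 0.79 ± 0.57 SE, adjusted p = 0.466). It ranged from 0.17 without Venus-negative replicate 1 to 1.41 without Venus-negative replicate 2. Lama2, the chain of muscle basement membrane, had the widest spread between replicates of the 31 genes, at -1.24 and -3.21 in Venus-positive and -1.05 and -2.51 in Venus-negative arrays. Its 95% interval ran from -2.98 to 2.10. Lama1, the alpha chain of the earliest embryonic basement membranes, averaged 4.48 ± 0.02 in Venus-positive and 4.61 ± 0.32 in Venus-negative cells (SD, n = 2 each), with a difference of -0.13 ± 0.19 SE (adjusted p = 0.732). Lama5, the widespread alpha chain of later basement membranes and vessels, averaged 3.16 ± 0.08 in Venus-positive and 3.28 ± 0.08 in Venus-negative cells (SD, n = 2 each). The 95% interval of its difference ran from -0.42 to 0.20.

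Lamb1, the beta chain of most embryonic laminins, had a normalised log2 signal of 5.02 and 5.05 in Venus-positive arrays, against 5.57 and 5.44 in Venus-negative arrays. The Venus-positive arrays lay below the Venus-negative ones in both slide rows, by 0.56 in row 1 and 0.39 in row 2. The difference of -0.47 ± 0.11 SE missed the threshold (limma adjusted p = 0.119). Lamb2, the beta chain of the neuromuscular junction and the kidney filter, differed by 0.18 ± 0.15 SE with overlapping fractions (adjusted p = 0.520). Of the gamma chains, Lamc3 had the largest difference. It lay at -3.76 and -4.07 in Venus-positive and -4.51 and -4.11 in Venus-negative arrays, with only a narrow gap between the fractions (difference 0.40 ± 0.21 SE, adjusted p = 0.334). The Lamc3 signal was low, at 17.3 and 20.1 in Venus-negative arrays, whose median signals were 19.0 and 17.3. With normexp background correction its difference was 0.085. Lamc1, the gamma chain of nearly all embryonic laminins, lay at 4.10 and 3.90 in Venus-positive and 3.69 and 3.68 in Venus-negative arrays, without overlap (difference 0.32 ± 0.12 SE, adjusted p = 0.231). Lamb1 and Lamc1, which share most trimers, thus had differences of opposite sign, and neither passed.

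**Figure D3:**
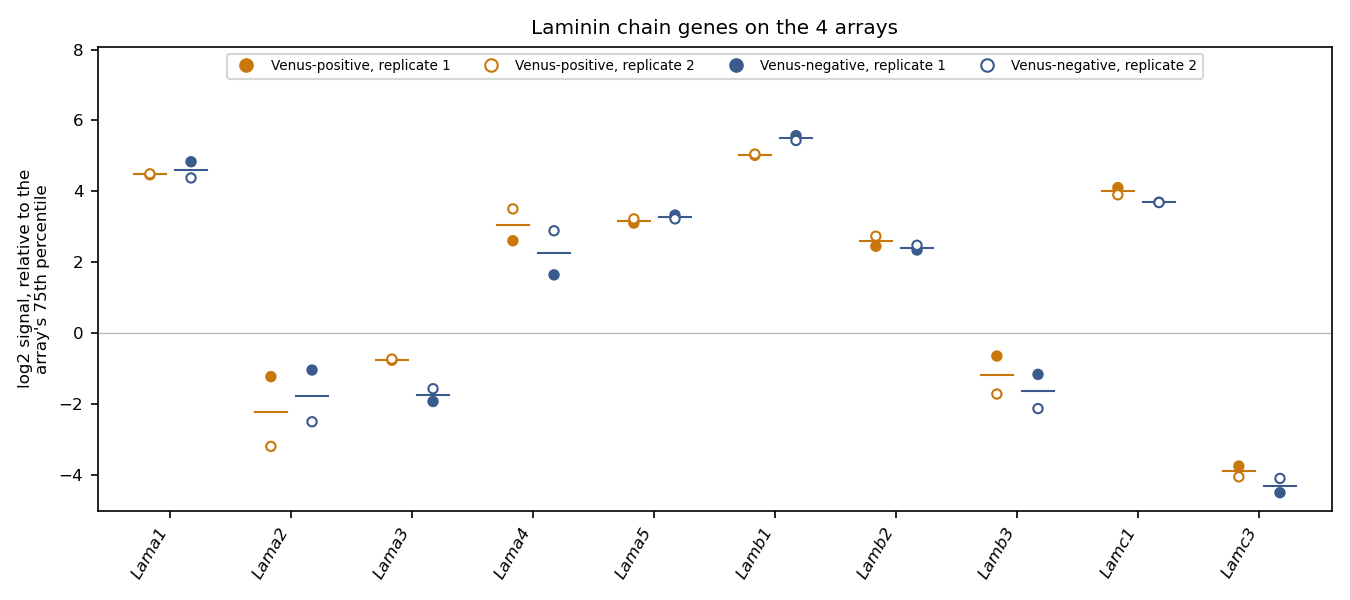
Normalised log2 signal (y axis) of laminin chain genes on the 4 arrays. Points are single arrays, Venus-positive left of Venus-negative, and lines the mean of 2 arrays. In both fractions the replicates of Lama2, Lama4 and Lamb3 lie farther apart than the fractions. Lama3 lies at -0.77 and -0.74 in Venus-positive and at -1.94 and -1.58 in Venus-negative arrays.

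The chain genes differed in how well the replicates agreed. The median absolute difference between replicates was 0.20 for the 31 chain genes in Venus-positive and 0.43 in Venus-negative cells, against 0.16 and 0.18 over all features. Within slide rows, 28 of the 31 chain genes (90.3%) had the same sign of difference in both rows, against 76.6% of all features. The 3 exceptions were Itga5, Itgam and Lama1, whose differences were 0.13 or smaller in size. Deviations from the fraction mean in arrays of the same row had an r of 0.74 over the 31 chain genes and 0.41 over all features, across genes that share these 4 arrays and are not independent.

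**Figure D4:**
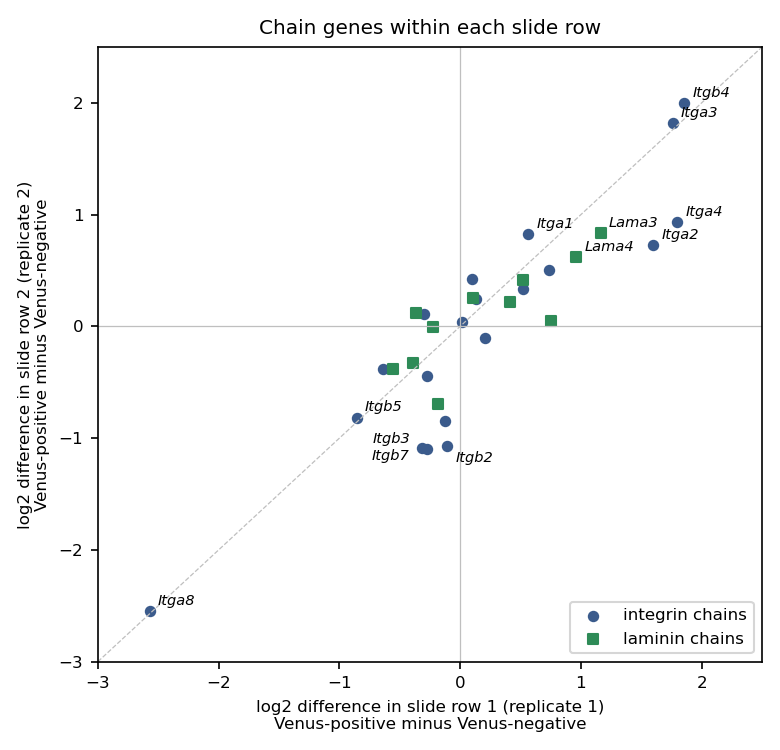
Log2 difference of each tested chain gene between the Venus-positive and the Venus-negative array of slide row 1 (x axis) and of slide row 2 (y axis). Circles are integrin and squares laminin genes, and the dashed line marks equal values; Itga8 lies near -2.57 and -2.55, and Itga4 and Itga2 below the dashed line with 1.80 and 1.60 in row 1 against 0.93 and 0.73 in row 2.

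Other genes of the pathway were read from 4 lists. Over all features, 0.777% were past the threshold as higher and 1.36% as lower in limma. At an unadjusted p under 0.05 in limma, 12.3% were higher and 11.4% lower. Nid1 rose among the basement membrane partners of laminins, of which 15 of 20 were tested, 1 was past the threshold as higher and 0 as lower, and 13 of 15 had a positive difference, where 50.4% of all features did (median 0.26, with 6 higher and 1 lower at an unadjusted p under 0.05). Nid1 encodes nidogen-1, which binds the laminin gamma1 chain and links laminin to collagen IV. Its normalised log2 signal was 4.81 and 4.51 in Venus-positive arrays, against 2.97 and 3.05 in Venus-negative arrays. The fractions lay far apart, and the difference of 1.65 ± 0.15 SE, or 3.13-fold, had a limma adjusted p of 0.0395. The call was lost with the mean of all probes of a gene (1.50, limma adjusted p = 0.0576). It was also lost without any 1 of the 4 arrays (difference 1.49 to 1.80) and with dim probes kept (limma adjusted p = 0.143). In these fits 0 features passed anywhere, so the loss says nothing about Nid1 in particular. Npnt, nephronectin, a ligand of alpha8 beta1 named after its value was seen, differed by 0.14 ± 0.20 SE (adjusted p = 0.716), and by 0.67 with the mean of all its probes (adjusted p = 0.289). Col15a1, Col4a3, Egfl6 and Ntn4 were not well above background on any array.

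Edil3 rose among 31 integrin ligands other than laminins, of which 25 were tested, 1 was past the threshold as higher and 0 as lower (median 0.06, with 9 higher and 1 lower at an unadjusted p under 0.05). Edil3 encodes an RGD protein of embryonic vessels that binds alphaV integrins. Its normalised log2 signal was 1.75 and 1.95 in Venus-positive arrays, against 0.35 and 0.40 in Venus-negative arrays. The fractions did not overlap, and the difference of 1.48 ± 0.12 SE, or 2.78-fold, had a limma adjusted p of 0.0367. The call was lost without any 1 of the 4 arrays (difference 1.37 to 1.58) and with dim probes kept (limma adjusted p = 0.143). In these fits 0 features passed anywhere, so the loss says nothing about Edil3 in particular. Of the ligands of alpha4 integrins, named after their values were seen, Vcam1 differed by -0.38 ± 0.13 SE (adjusted p = 0.213) and Madcam1 by 1.17 ± 0.29 SE (adjusted p = 0.131). Fga, Fgb, Fgg, Ibsp, Tnc and Vtn were not well above background on any array. The list shares Col1a1, Col1a2, Col3a1, Postn and Vcam1 with the stromal markers. The endothelial markers were higher beside Nid1 and Edil3, as given above, and their part was not tested.

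The proteins that link integrins to the cytoskeleton had 0 of 40 tested genes past the threshold in limma, with 9 higher and 4 lower at an unadjusted p under 0.05 (median 0.16, 25 of 40 positive, against 50.4% of all features). Parvb, a partner of integrin-linked kinase, lay at -1.17 and -1.08 in Venus-positive and -0.48 and -0.02 in Venus-negative arrays, without overlap (difference -0.87 ± 0.19 SE, adjusted p = 0.117). Laminin receptors other than integrins had 0 of 14 past it in limma, with 2 higher and 3 lower at an unadjusted p under 0.05 (median 0.09). Among them Bcam, a laminin alpha5 receptor, lay at -3.41 and -3.35 in Venus-positive and -2.30 and -2.63 in Venus-negative arrays, a difference of -0.91 ± 0.15 SE (adjusted p = 0.0805). With normexp background correction the difference of Bcam was -0.49. Sdc1, a heparan sulfate proteoglycan that binds laminins, lay at 1.30 and 1.37 in Venus-positive and 2.25 and 2.10 in Venus-negative arrays, a difference of -0.84 ± 0.11 SE (adjusted p = 0.0608). In both genes the fractions did not overlap.

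**Figure D5:**
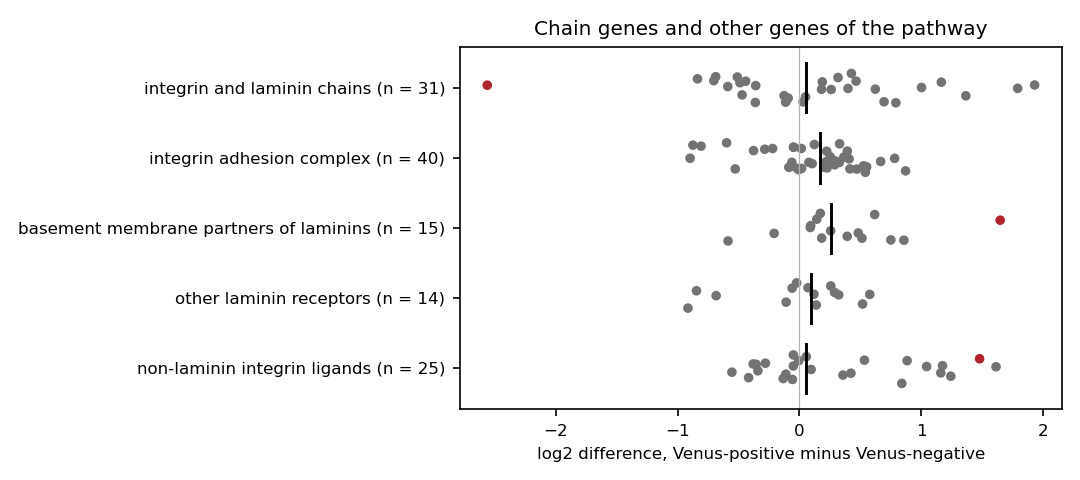
Log2 difference, Venus-positive minus Venus-negative (x axis), of the tested integrin and laminin chain genes and of 4 lists of other pathway genes. Points are genes, spread vertically at random for visibility, red marks a limma adjusted p under 0.05 (Itga8 at -2.56, Nid1 at 1.65, Edil3 at 1.48), and black lines are medians, between 0.05 and 0.26.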

How the data were processed

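Total RNA of the sorted fractions was labelled with Cy3 and hybridised to single-colour Agilent arrays, per the labels' protocols. The deposited scanner tables hold an intensity for each spot from Agilent Feature Extraction 10.10.1.1, which the software corrected for background and for spatial trends on the array but did not scale across arrays, per the file headers. The deposited value table holds the same intensity times 1 constant per array (1.98 and 2.11 for Venus-positive, 2.15 and 2.44 for Venus-negative arrays), with column medians of 41.0 and 38.1 for Venus-positive and 41.0 and 42.3 for Venus-negative arrays. It was not centred by gene, and the origin of the constants is not given in the sources used here.

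Control spots and 152 to 196 outlier spots per array were left out, leaving 55681 probes. From the log2 of the processed signal, the array's own 75th percentile was subtracted, which stood at a signal of 429 and 398 in Venus-positive and 396 and 347 in Venus-negative arrays. Of 37881 accessions, 21465 matched 1 symbol of a RefSeq table (GRCm38.p6). Features were 1 probe per named gene, the one with the highest mean signal, plus unnamed probes, kept if both arrays of 1 fraction or the other rated them well above background: 13923 genes and 9622 unnamed probes. Venus-positive was set against Venus-negative in limma (version 3.58.1, R 4.3.3; lmFit, then eBayes; 2 residual and 1.80 prior degrees of freedom), and p-values over all features were adjusted by Benjamini-Hochberg, with a threshold of 0.05. Tables were handled with data.table, version 1.17.8. The fit was tested on simulated data.

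Alternatives were normexp background correction (offset 50, on median signals because the tables hold no mean signal), centring on the median, quantile normalization, the deposited value table, no filter on dim probes, a signal-dependent variance prior, the mean of all probes of a gene, a replicate block, and each array left out. The chain genes and all lists were chosen with earlier results of these data known. Chain genes are given one by one, except that some genes of the chains and lists are counted but not reported here. Full array values are given for chain genes past the threshold and the largest difference of each role, with other members by values or ranges; from each list, the genes past the threshold or otherwise the 2 largest differences are named. Other probes of a chain gene are named where they differ by over 0.5 or in sign from its own; of 11 other probes, those of Itgam and Itgav do, and further ones were named where they bear on a value.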

Additional observations from a re-analysis of the deposited data

How the results depend on the processing

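Most counts at an adjusted p under 0.05 moved with the processing. Chain genes past the threshold were 0 higher and 1 lower as reported, 3 and 2 with normexp, 3 and 3 with a signal-dependent variance prior, 2 and 1 with the replicate block and 1 and 1 with median centring; 0 were lower without a filter on dim probes and 0 to 0 without any 1 array. The calls gained were Itga3 (adjusted p = 0.0209 with normexp, 0.0488 with median centring, 0.0238 with the signal-dependent prior, 0.0428 with the replicate block), Itga4 (0.0464 with normexp, 0.0374 with the prior), Itgb5 (0.0208, 0.0144), Lama3 (0.0343, 0.0457), Lamb1 (0.0378 with the prior) and Itgb4 (0.0428 with the replicate block). Cytoskeletal linker genes past the threshold were 2 with normexp, 5 with the prior and 1 with the replicate block. Basement membrane partners were 3 with normexp, 3 with the prior, 0 with the mean of all probes, 0 without the filter and 0 to 0 without any 1 array. Other laminin receptors were 1 with normexp and 2 with the prior. Ligands were 4 with normexp, 5 with the prior, 3 with the replicate block, 0 without the filter and 0 to 0 without any 1 array.

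Over all features, 183 were higher and 320 lower as reported, against 591 and 694 with normexp, 730 and 920 with the prior, 390 and 545 with the replicate block and 351 and 375 with median centring, and 0 in limma without the filter (2899 higher and 3641 lower at an unadjusted p under 0.05). The labels do not say what a replicate number marks, and with 2 pairs the replicate block rests on slide row alone. Signs turned for Itga6 with quantile normalization (-0.0014), for Npnt with normexp (-0.037) and, without 1 array, for Lamb3 (range -0.072 to 1.00), Lama2 (-1.43 to 0.54), Itga5 (-0.31 to 0.12), Itgam (-0.095 to 0.19), Lama1 (-0.36 to 0.10) and Npnt (-0.092 to 0.38). The cause was not tested. The median of the chain genes kept its sign. Signals near background limit what could be followed, and 4 chain genes lay there on every array.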

Other observations

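Chain genes that lie next to each other in RefSeq (GRCm38.p6, with 0 protein-coding genes between them) include Itga2 and Itga1, Itgam and Itgax, and Itgax and Itgad. Itga2 and Itga1 both had positive differences, at 1.16 and 0.69. Next to Itgam, Itgax and Itgad were not well above background on any array. The probe that stood for Itgam was well above it on all 4 arrays, but its other probes were not, as given above.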
